A study of Mus musculus with 9 samples.

Results

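The metallothionein genes Mt1, Mt2 and Mt3 and the long noncoding RNA (lncRNA) Gm45774, which is annotated next to them on the opposite strand, were followed in the mouse trigeminal ganglion (TG) after inflammation of the temporomandibular joint (TMJ). The members were chosen by gene name, and Gm45774 was known from earlier results of these data to differ between groups, so the levels and differences of the 4 genes are given as a description without a test. They are 4 of 55073 named genes in the deposited tables, of which 21809 are in the mRNA table and 9933 in the lncRNA table. The other nearby gene of the family, Mt4, is given beside them.

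Metallothioneins are small cysteine-rich proteins that bind zinc and copper and buffer the free metal in the cell. Mt1 and Mt2 are made in most tissues and are induced by zinc through the transcription factor MTF-1, and also by glucocorticoids, cytokines and oxidative stress, while Mt3 is best known from the nervous system and Mt4 from stratified epithelia. Their transcripts are short, with 3 exons in the main form, so a transcript that still holds an intron can be told from the spliced mRNA by the bases it adds.

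The study used male wild-type C57BL/6 mice, 8 weeks old, that received 10 µl into the TMJ under isoflurane. The saline group (saline replicates 1 to 3) is labelled day 3, and complete Freund's adjuvant (CFA, 5 mg/ml), a mycobacterial suspension that causes lasting local inflammation, was given to the CFA3D group (day 3, replicates 1 to 3) and the CFA6D group (day 6, replicates 4 to 6). Unilateral TG punches of 3 mice were pooled for each library, so n = 3 pools per group, and no saline group is labelled day 6, so the day and the treatment cannot be told apart in a comparison of CFA6D with saline. Both CFA groups are set against the same saline libraries. The TG is a bulk tissue, in which fewer cells of a type and less RNA per cell cannot be told apart.

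The total that scales the FPKM values (fragments per kilobase of transcript per M mapped fragments), read from their steps, was 30.0 to 42.2 M read pairs per library. It is not the number of reads sequenced, which the paper reports per group. At this total a single read pair on 1 kb adds 0.0237 to 0.0333 FPKM. The defining markers of the ganglion were high in every library, with sums of 2228 to 3336 FPKM over 12 neuronal genes and 2428 to 3493 FPKM over 8 Schwann cell genes. Markers of the pituitary, which lies beside the ganglion, summed to 10701 FPKM over 8 genes in saline replicate 3, 1118 in CFA6D replicate 4 and 411 in CFA6D replicate 5, against 8.93 to 99.9 in the other 6 libraries. Markers of skeletal muscle summed to 168 FPKM in saline replicate 2, 70.8 in CFA6D replicate 6 and 39.0 in saline replicate 1, against 1.73 to 9.87 elsewhere. These libraries stand apart from the rest, and values without each of them are given where they matter.

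The 5 genes lie on chromosome 8 of the GRCm38 build within 43.1 kb. Mt4 (chr8:94137197-94139031), Mt3 (chr8:94152607-94154146), Mt2 (chr8:94172664-94173568) and Mt1 (chr8:94179082-94180327) are on the plus strand, and Gm45774 (chr8:94170748-94173412) is a single exon of 2665 bases on the minus strand. Gm45774 starts inside exon 3 of the main Mt2 transcript and is transcribed back over the gene. It overlaps 749 bases of the Mt2 span, 355 of them exonic and 394 intronic in Mt2-201, and then runs through another 1916 bases upstream of the Mt2 start. Mt1 begins 5669 bases beyond the start of Gm45774, and 16601 bases separate Mt3 from its far end.

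**Figure D1:**
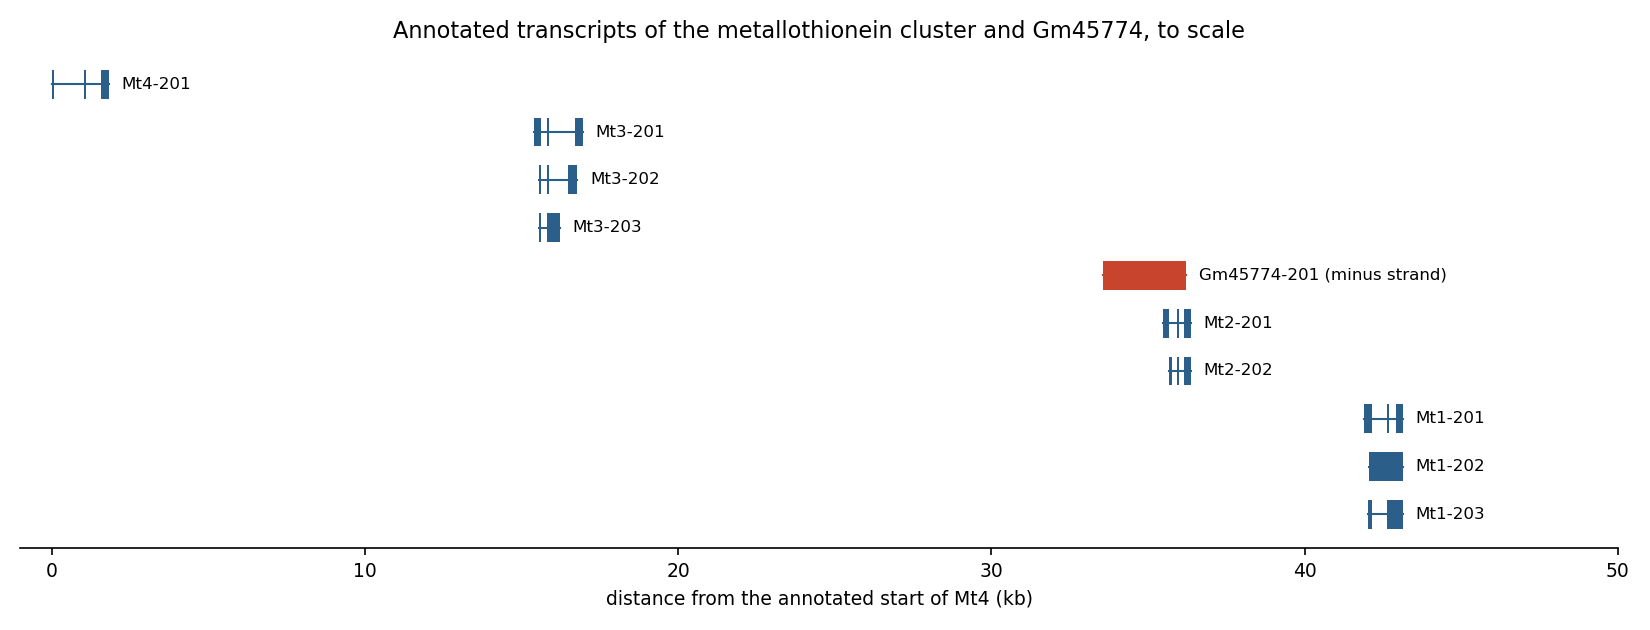
Annotated transcripts of the cluster drawn to scale, with boxes for exons, lines for introns, blue for the plus strand and red for the minus strand, and the horizontal axis in kb from the start of Mt4. Gm45774 covers most of Mt2 and the sequence upstream of it, and Mt1-202 is a single block over the introns of Mt1.

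The sequence upstream of the inducible genes is shown because Gm45774 runs through that of Mt2. Each line holds the 240 bases from -250 to -11 of the RefSeq start (GRCm38.p6, plus strand, 5′ to 3′), with the cores of metal response elements, the sites that MTF-1 binds, in capitals. The cores searched were TGCACNC and TGCGCNC on both strands, so a core on the minus strand is printed as its reverse complement.
Mt1: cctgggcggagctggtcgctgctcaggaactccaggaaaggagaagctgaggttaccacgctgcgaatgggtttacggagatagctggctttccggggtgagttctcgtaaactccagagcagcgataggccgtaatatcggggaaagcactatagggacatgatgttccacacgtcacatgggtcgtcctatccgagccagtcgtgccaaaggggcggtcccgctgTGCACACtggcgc
Mt2: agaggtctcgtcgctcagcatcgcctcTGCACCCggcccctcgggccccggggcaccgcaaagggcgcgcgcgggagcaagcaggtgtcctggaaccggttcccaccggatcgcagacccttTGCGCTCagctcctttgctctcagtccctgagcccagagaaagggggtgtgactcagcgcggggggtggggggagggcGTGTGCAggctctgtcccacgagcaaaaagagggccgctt
Mt3: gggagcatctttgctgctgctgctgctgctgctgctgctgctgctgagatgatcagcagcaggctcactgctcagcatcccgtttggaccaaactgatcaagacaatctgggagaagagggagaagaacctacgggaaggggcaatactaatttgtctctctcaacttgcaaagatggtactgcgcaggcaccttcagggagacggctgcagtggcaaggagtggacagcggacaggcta

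Counted over the whole 300-base window, which runs 50 bases past the start, Mt2 held 4 cores, Mt1 held 3, and Mt3 and Mt4 held 1 each. Cores past the start were those of Mt1 at 3 to 9 and 21 to 27. So were those of Mt2 at 5 to 11 and Mt3 at 28 to 34. Each count depends on the RefSeq start used. Mt1-203 and Mt1-202 start further downstream, at 94179211 and 94179241, and the sequence just before those starts was not searched. Of 32851 promoters of the same length, 25.7% held at least 1 core, 1.97% held at least 3 and 0.517% held at least 4. The core of the antioxidant response element, TGACNNNGC, was found in Mt2 at -79 to -71 and is in 12.4% of promoters, and it does not overlap the metal response cores. The full palindrome of the glucocorticoid response element was in 3 of all promoters and in none of the 4 metallothionein windows. These matches describe the letters of the windows and say nothing about binding.

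The spliced metallothionein mRNAs were among the most abundant in the ganglion and did not separate the groups. By mean FPKM over the 9 libraries, Mt2 was in place 39 of the 16096 genes of the mRNA table that averaged 0.1 FPKM or more, Mt1 in place 53 and Mt3 in place 69. Mt2 was above Mt1 in 9 of 9 libraries and above Mt3 in 9 of 9, and Mt1 was above Mt3 in 8 of 9. The ranges of Mt1 and its neighbours in this order overlapped within each group, except that both Mt1 and Mt2 lay wholly above Mt3 in the saline libraries.

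Mt1, summed over its transcripts, had levels of 349.6, 327 and 425 FPKM in saline replicates 1 to 3. It had 332, 284 and 359.9 FPKM in CFA3D replicates 1 to 3, and 277, 414 and 227 FPKM in CFA6D replicates 4 to 6. The 3 groups overlapped, and the lowest and the second highest value of the 9 were both on CFA6D. The means were 367 ± 51.6 FPKM for saline, 325 ± 38.5 for CFA3D and 306 ± 96.8 for CFA6D (SD, n = 3 each). On the log2(FPKM + 0.1) scale used for all differences, Mt1 differed from saline by -0.17 on CFA3D and by -0.30 on CFA6D, with pooled replicate SDs of 0.19 and 0.34. Without each library in turn these differences were -0.25 to -0.06 and -0.54 to -0.11. The CFA3D difference was smallest in size without saline replicate 3, and the CFA6D difference without CFA6D replicate 6.

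Mt2 had levels of 363, 354 and 433 FPKM in the saline libraries, 406, 319.7 and 374 on CFA3D, and 367, 504 and 232 on CFA6D. CFA6D replicate 5 was the highest and CFA6D replicate 6 the lowest of all 9, so the CFA6D range enclosed the other groups. The means were 384 ± 43.0, 367 ± 43.8 and 368 ± 136 FPKM (SD, n = 3 each). The log2 difference from saline was -0.07 on CFA3D and -0.13 on CFA6D, below the pooled SDs of 0.17 and 0.41. The sign rested on single libraries: without CFA6D replicate 6, which holds muscle RNA, the CFA6D difference was 0.17, and the CFA3D difference was 0.03 without CFA3D replicate 2 and 0.02 without saline replicate 3.

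Mt3 had levels of 305, 282 and 297 FPKM in the saline libraries, 280.2, 265 and 327 on CFA3D, and 311, 285 and 222 on CFA6D. The groups overlapped, and CFA6D replicate 6 was lowest here as it was for Mt1 and Mt2. The means were 295 ± 11.7, 291 ± 32.3 and 273 ± 45.6 FPKM (SD, n = 3 each). The log2 difference from saline was -0.03 on CFA3D and -0.13 on CFA6D, with pooled SDs of 0.12 and 0.18. Without CFA6D replicate 6 the CFA6D difference was 0.01, and without CFA3D replicate 2 the CFA3D difference was 0.04. Over all 16096 gene sums the median difference was 0.06 on CFA3D and 0.03 on CFA6D.

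Mt4 was listed at 0 in 6 of the 9 libraries and at 0.0837, 0.0697 and 0.0666 FPKM in saline replicate 2, CFA3D replicate 3 and CFA6D replicate 5. Each of these values corresponds to 1.0 read pair. Mt4 did not reach the mean of 0.1 FPKM needed for the fit, and no comparison was made for it.

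Gm45774 showed the opposite of the mRNA pattern, with a low level and a wide separation of the groups. Its levels were 0.618, 0.722 and 0.619 FPKM in saline, 0.589, 0.549 and 0.386 on CFA3D, and 2.25, 3.30 and 2.02 on CFA6D. All 3 CFA6D libraries lay above every other library, and all 3 CFA3D libraries lay below the lowest saline library. As approximate numbers of read pairs, these levels were 50.5 to 66.3 in saline, 37.1 to 66.2 on CFA3D and 204.6 to 332.1 on CFA6D.

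The means of Gm45774 were 0.653 ± 0.0598, 0.508 ± 0.107 and 2.53 ± 0.681 FPKM (SD, n = 3 each), so the CFA6D mean was 3.87 times the saline mean and 4.97 times the CFA3D mean. The log2 difference was -0.32 between CFA3D and saline, 1.78 between CFA6D and saline and 2.10 between CFA6D and CFA3D, with pooled SDs of 0.21, 0.27 and 0.32. Among 4122 lncRNA gene sums, the difference between CFA6D and saline was in place 6 from the highest and that between CFA6D and CFA3D in place 3, and the gene was chosen with such results known. CFA6D lay wholly above saline in 5.94% of lncRNA gene sums, CFA6D wholly above CFA3D in 5.43%, and CFA3D wholly below saline in 4.03%. Without each library in turn the CFA6D difference from saline was 1.57 to 1.91. All 3 CFA6D libraries stood apart in markers of another tissue, with pituitary sums of 1118 and 411 FPKM in replicates 4 and 5 and a muscle sum of 70.8 FPKM in replicate 6, and each of the 6 such fits still held some of the libraries that stand apart. Saline replicate 3, with 10701 FPKM of pituitary markers, had 0.619 FPKM of Gm45774, and saline replicate 2, with 168 FPKM of muscle markers, had 0.722. The part of this RNA in the Gm45774 difference was not tested.

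**Figure D2:**
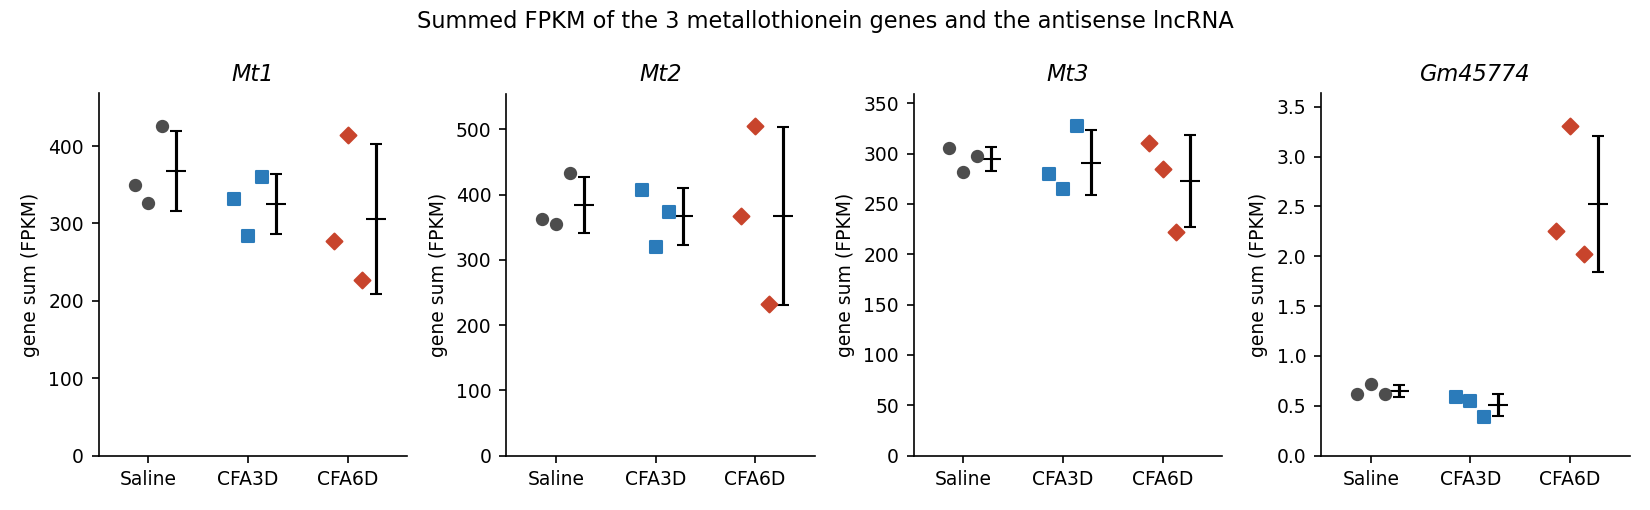
Summed FPKM of Mt1, Mt2, Mt3 and Gm45774 in each library (points, in replicate order) by group, with the mean and SD of 3 libraries as bars beside them and each vertical axis starting at 0. The 3 groups overlap for the metallothioneins, and for Gm45774 the CFA6D libraries at 2.02 to 3.30 FPKM lie above the other libraries at 0.386 to 0.722 FPKM.

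Set against the gene it overlaps, Gm45774 remained a minor signal of the locus. Its FPKM was 0.170%, 0.204% and 0.143% of that of Mt2 in the saline libraries and 0.145%, 0.172% and 0.103% on CFA3D. On CFA6D the figure was 0.614%, 0.655% and 0.873%, all above the other 6 libraries. The methods of the study describe stranded libraries, the sample labels name a kit that does not mark strand, and whether strand was used in counting is not given in the sources used here. Without strand, reads of unspliced or upstream RNA from the Mt2 locus and reads of Gm45774 cannot be told apart.

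Mt1 gave a second signal of this kind on the plus strand. Mt1-201 is the spliced mRNA of 549 bases, Mt1-203 keeps intron 2 (213 bases), and Mt1-202 is a single exon of 1085 bases that reads through both introns and so holds 697 intronic bases of Mt1-201. The junctions that set the spliced form apart from the unspliced one are shown with the last 20 bases of exon 1 in capitals (GRCm38.p6, plus strand, positions 94179319 to 94179842 across the intron and chr8:94179319-94179358 through it).
Mt1-201 exon 1 to exon 2: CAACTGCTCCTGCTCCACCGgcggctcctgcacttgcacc
Mt1-202 exon 1 to intron 1: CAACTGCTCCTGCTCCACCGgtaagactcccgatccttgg

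Mt1-202 had levels of 1.59, 2.10 and 1.36 FPKM in the saline libraries, 1.67, 1.35 and 1.61 on CFA3D, and 5.24, 6.53 and 3.86 on CFA6D. The CFA6D libraries lay above all others, while saline and CFA3D overlapped. The mean was 1.68 ± 0.377 FPKM in saline and 5.21 ± 1.34 on CFA6D (SD, n = 3 each), a log2 difference of 1.57 with a pooled SD of 0.34, against -0.10 on CFA3D. As a share of the Mt1 sum, Mt1-202 made up 0.319% to 0.641% in saline, 0.448% to 0.502% on CFA3D and 1.58% to 1.89% on CFA6D. In the mRNA table, CFA6D lay wholly above saline in 6.7% and wholly above CFA3D in 5.17% of the 66206 transcripts that averaged 0.1 FPKM or more.

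The other Mt1 transcripts did not follow it. Mt1-201 had a log2 difference of -0.35 from saline on CFA6D. It made up 87.8% to 91.6% of the gene sum in saline, 88.4% to 90.0% on CFA3D and 85.7% to 87.0% on CFA6D, so its share was lowest in the 3 CFA6D libraries. Mt1-203, which keeps the shorter intron, had 27.7, 37.9 and 48.3 FPKM in saline and 30.8, 52.7 and 26.3 on CFA6D, with a log2 difference of -0.08. Over 18624 transcripts annotated as retained introns in the mRNA table the median difference between CFA6D and saline was -0.03, and over 2499 antisense lncRNA transcripts it was -0.01. Mt1-202 itself is annotated as protein coding.

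Mt2 has no annotated transcript that holds both of its introns. Mt2-201 made up at least 99.68% of the gene sum in every library. Mt2-202, which starts later and extends exon 1 into the intron, was listed between 0 and 1.13 FPKM, which is 0.0 to 13.2 read pairs, with no order among the groups. Mt3-202 splices exon 2 to a last exon of 289 bases, 204 of which lie in intron 2 of Mt3-201. Its junction is shown beside that of Mt3-201, with the last 20 bases of exon 2 in capitals (GRCm38.p6, plus strand, positions 94153071 to 94153716 and 94153071 to 94153920).
Mt3-201 exon 2 to exon 3: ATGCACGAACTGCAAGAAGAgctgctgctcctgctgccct
Mt3-202 exon 2 to its own last exon: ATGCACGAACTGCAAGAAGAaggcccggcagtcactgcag

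The FPKM of Mt3-202 was 6.23, 4.50 and 3.30 in saline, 5.32, 3.74 and 5.33 on CFA3D, and 7.76, 9.64 and 4.32 on CFA6D. CFA6D replicates 4 and 5 lay above all other libraries and CFA6D replicate 6 among them. The log2 difference from saline was 0.59 on CFA6D with a pooled SD of 0.52, and 0.06 on CFA3D. Mt3-203, which ends inside intron 2, stayed at 3.89 to 5.90 FPKM over the 9 libraries, with a difference of 0.09 on CFA6D.

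**Figure D3:**
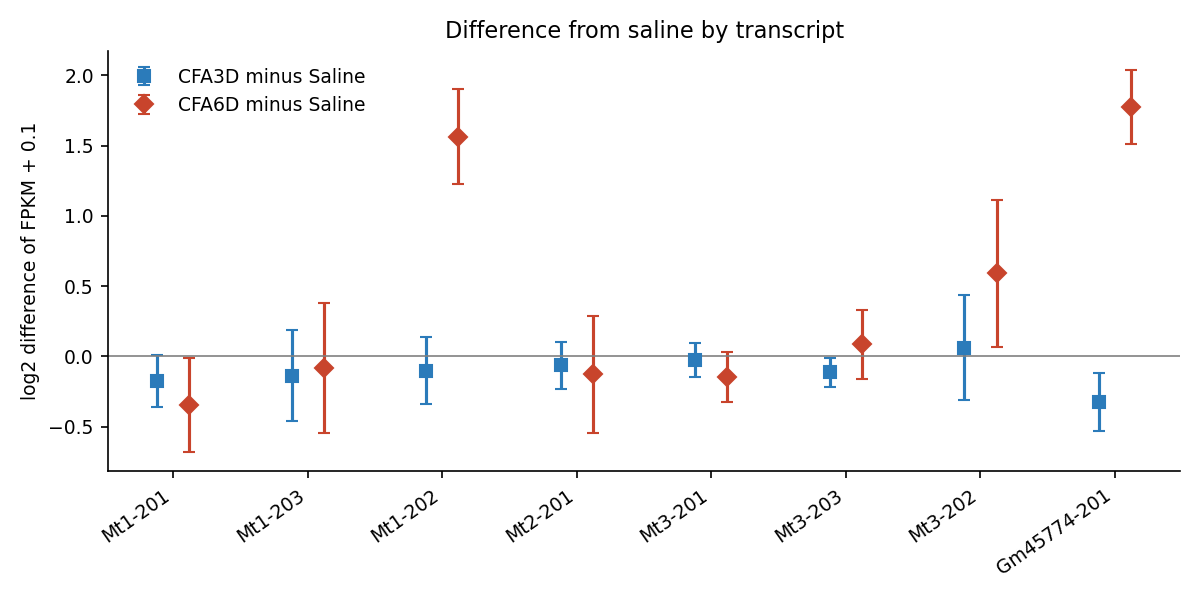
Difference from saline of the log2(FPKM + 0.1) means for 8 transcripts of Mt1, Mt2, Mt3 and Gm45774 on CFA3D (blue squares) and CFA6D (red diamonds), with bars of 1 pooled replicate SD, 3 libraries per group. Mt1-202 (1.57) and Gm45774-201 (1.78) stand above 0 on CFA6D, while the main transcripts Mt1-201, Mt2-201 and Mt3-201 lie between -0.35 and -0.13.

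Across libraries, Mt1 and Mt2 went together and Mt3 followed them less closely. On the log2 scale, Pearson's r of Mt1 with Mt2 was 0.90 and Spearman's rank correlation 0.82 over the 9 libraries. The value of r was 0.78 without the 2 libraries farthest from the median of Mt1. For Mt1 with Mt3, r was 0.64 and Spearman's value 0.47, and r fell to 0.17 without the 2 farthest libraries, so this relation rests on those libraries. Likewise, r of Mt2 with Mt3 was 0.68 and Spearman's value 0.47, and r was 0.34 without the 2 libraries farthest from the median of Mt2. The points share each library's depth and tissue make-up, and no p-value is attached.

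For Gm45774 the CFA6D libraries form a cluster of their own, so its r with the metallothioneins is not given on the levels of all libraries. Within the 6 saline and CFA3D libraries, r of Gm45774 was 0.05 with Mt2, -0.03 with Mt1, -0.57 with Mt3 and 0.34 with Mt1-202, and Spearman's value was 0.09, 0.03, -0.09 and 0.31. As deviations from group means over the 9 libraries, r was 0.61, 0.47, -0.02 and 0.63 in that order, and Spearman's value 0.43, 0.30, -0.18 and 0.58. Within CFA6D, replicate 5 was the highest and replicate 6 the lowest for Gm45774, Mt1-202, Mt1 and Mt2 alike, which is 3 libraries. The level of Mt2 thus ranged from 232 to 504 FPKM among CFA6D libraries whose Gm45774 was 2.02 to 3.30 FPKM.

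The genes of the mRNA table most like each member were ranked by Pearson's r on the log2 scale over the 9 libraries among 13172 genes that averaged 1 FPKM or more. The mean of Mt1 and Mt2 was most like Mttp, the microsomal triglyceride transfer protein (r = 0.90), followed by Gm20878 (0.85), Gkap1 (0.85), Cyp4f17 (0.84) and Cfap20 (0.82). Mt3 was most like Mrpl2, a mitochondrial ribosomal protein (0.96), followed by Plekha7 (0.94), Nol12 (0.91), Zfp11 (0.87) and Gstm4 (0.87). The best of 13172 genes over 9 points are high by selection, so these values describe the libraries.

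Gm45774 was most like Tmem184b (0.98), Ddit4, an inhibitor of mTORC1 signalling (0.96), Net1 (0.95), Spsb1 (0.95) and Nfkbia, the inhibitor IκBα of NF-κB (0.94). These high values reflect the separation of CFA6D, since within the 6 saline and CFA3D libraries the same r was 0.74, 0.51, 0.29, 0.18 and 0.56. The level of Ddit4 was 26.3, 24.3 and 16.9 FPKM in saline, 26.4, 27.2 and 16.4 on CFA3D, and 69.4, 79.1 and 63.0 on CFA6D. Nfkbia had 15.9, 14.6 and 12.1 FPKM in saline, 16.1, 18.3 and 10.1 on CFA3D, and 27.7, 34.5 and 32.2 on CFA6D. Both had all CFA6D libraries above all others, which a ranking by likeness to Gm45774 favours. Over all mRNA gene sums, CFA6D lay wholly above saline in 10.7%, and the share wholly above CFA3D was not counted. Tmem184b moved less in size, from 18.8 ± 0.457 FPKM in saline and 18.7 ± 0.670 on CFA3D to 23.3 ± 0.361 on CFA6D (SD, n = 3 each).

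**Figure D4:**
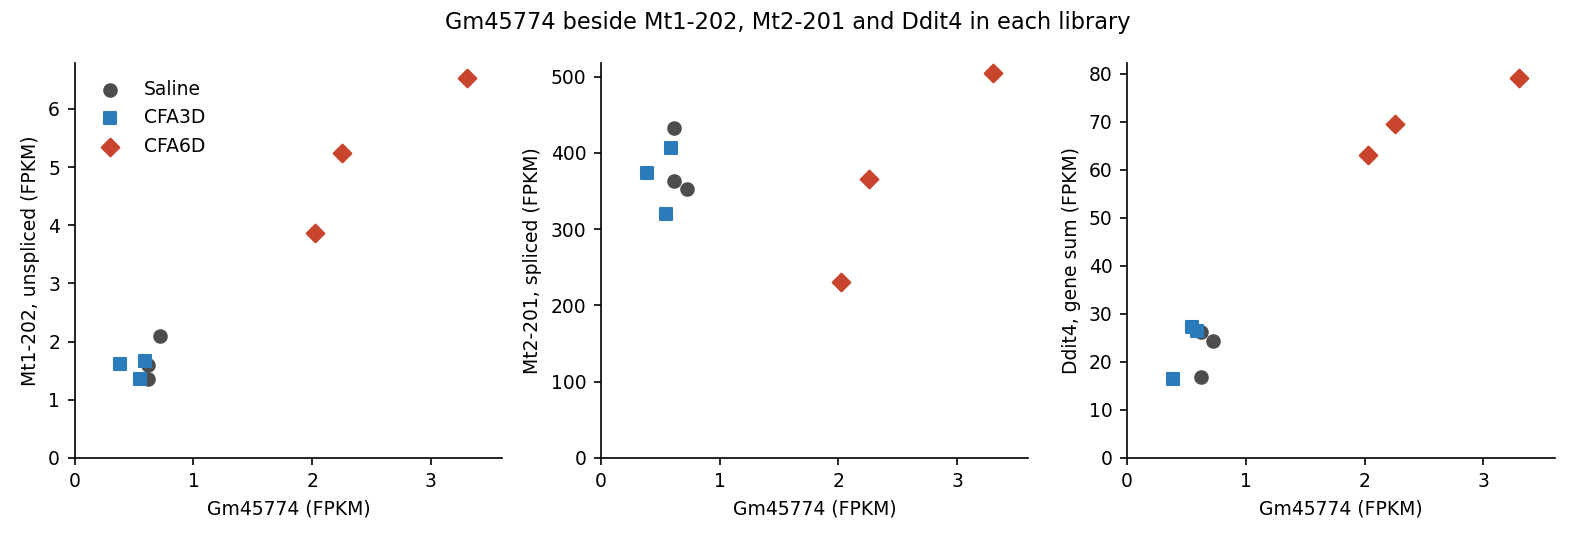
FPKM of Gm45774 (horizontal axis) against that of the unspliced Mt1-202, the spliced Mt2-201 and Ddit4 (vertical axes from 0) in each of the 9 libraries, by group. CFA6D separates from the other groups on Mt1-202 (3.86 to 6.53 FPKM) and Ddit4 (63.0 to 79.1 FPKM), and spans the range of the others on Mt2-201.

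The genes around the cluster were compared to see whether the difference reached beyond it. Within 250 kb on either side, 19 other genes are annotated and in the tables, of which 16 averaged 0.1 FPKM or more and 8 of these were in the mRNA table. A gene of the mRNA table was called where limma gave an unadjusted p under 0.05 and a log2 difference of at least 1 in size. None of the 8 was called in any of the 3 comparisons, against 0.342% of all tested gene sums for CFA3D and saline, 0.584% for CFA6D and saline and 0.77% for CFA6D and CFA3D. At an unadjusted p under 0.05 in limma there were 1, 1 and 0 of the 8 in the 3 comparisons, Gnao1 in both cases. Over all gene sums the shares at that p were 4.45%, 11.1% and 7.39%. The differences of the 8 genes between CFA6D and saline ran from -0.11 to 0.39.

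Of the 3 nearest tested genes on the Mt3 side, Bbs2, a subunit of the BBSome of cilia, had 9.28 ± 1.45 FPKM in saline and 8.59 ± 1.06 on CFA6D (SD, n = 3 each), a difference of -0.11 (limma, adjusted p = 0.814). Ogfod1 differed by 0.09 (adjusted p = 0.750 in limma) and Nudt21 by 0.01 (adjusted p = 0.971 in limma). On the Mt1 side, Nup93, a nuclear pore protein whose gene begins 34.2 kb from the cluster, had 52.5 ± 8.28 FPKM in saline and 55.5 ± 6.12 on CFA6D (SD, n = 3 each), a difference of 0.09 (limma, adjusted p = 0.830). Slc12a3 differed by 0.33 (adjusted p = 0.710 in limma) and Herpud1 by 0.13 (adjusted p = 0.865 in limma). The neighbour whose CFA6D libraries all lay above saline was Gnao1, a G protein α subunit 167.8 kb away, with 60.6, 63.4 and 79.2 FPKM in saline and 91.7, 86.3 and 87.3 on CFA6D (log2 difference 0.39, limma, adjusted p = 0.191). It was named after its values were seen, and 10.7% of all mRNA gene sums had CFA6D wholly above saline.

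Lists of genes that act on metals or that are known to accompany metallothionein induction were then counted. In the zinc list, which holds the zinc sensor Mtf1, the Slc30 transporters that move zinc out of the cytosol and the Slc39 transporters that bring it in, 23 of 25 genes were tested and 0 were called in any comparison by limma. At an unadjusted p under 0.05 there were 0, 1 and 2 of them for CFA3D with saline, CFA6D with saline and CFA6D with CFA3D, against 4.45%, 11.1% and 7.39% of all gene sums. The median log2 difference of the list was 0.06, -0.01 and -0.11. Mtf1 had 4.65 ± 0.355 FPKM in saline, 5.47 ± 0.717 on CFA3D and 5.51 ± 0.340 on CFA6D (SD, n = 3 each). Slc30a1, the plasma membrane zinc exporter that MTF-1 induces together with Mt1 and Mt2, had 3.51 ± 0.389, 3.68 ± 0.465 and 3.48 ± 0.321 FPKM (SD, n = 3 each).

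Among other genes of the zinc list, the smallest unadjusted p for CFA6D with saline belonged to the importer Slc39a6, with 11.3 ± 0.601 FPKM in saline and 13.4 ± 0.502 on CFA6D (SD, n = 3 each, log2 difference 0.24, limma, adjusted p = 0.329). The largest difference in size was that of Slc39a12, at 3.10 ± 0.900 FPKM in saline and 1.80 ± 1.03 on CFA6D (SD, n = 3 each, log2 difference -0.92, limma, adjusted p = 0.491). It would have been called without CFA6D replicate 5 (-1.23) or replicate 6 (-1.21), and was -0.32 without CFA6D replicate 4. Slc39a10 differed by -0.23 (limma, adjusted p = 0.549).

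In the copper list all 12 genes were tested and 0 were called in any comparison by limma, with a median of 0.07 on CFA3D and -0.04 on CFA6D. At an unadjusted p under 0.05 there were 1, 0 and 0 in the 3 comparisons, against 4.45%, 11.1% and 7.39% of all gene sums, and these shares, like the 0.342%, 0.584% and 0.77% called, are the background for all the lists. The copper chaperone Atox1 had 83.1 ± 8.25 FPKM in saline and 75.3 ± 0.711 on CFA6D (SD, n = 3 each). In the oxidative stress list all 15 genes were tested and 0 were called by limma, with medians of 0.14 and 0.08, and 1, 0 and 0 at an unadjusted p under 0.05. The NRF2 targets Srxn1 and Gsr differed from saline on CFA6D by 0.21 (limma, adjusted p = 0.458) and 0.43 (limma, adjusted p = 0.483).

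In the list of IL-6 and STAT3 genes, which stand for the cytokine route to metallothionein, 11 of 12 were tested and 0 were called by limma. At an unadjusted p under 0.05 there were 1, 3 and 3 of the 11 in the 3 comparisons, against 4.45%, 11.1% and 7.39% of all gene sums, and the median was 0.17 on CFA3D and 0.28 on CFA6D. Stat3 had 53.6 ± 2.42 FPKM in saline and 64.0 ± 2.81 on CFA6D (SD, n = 3 each, log2 difference 0.26, limma, adjusted p = 0.225). Cebpb had 5.94 ± 0.337 and 12.7 ± 5.13 FPKM (SD, n = 3 each), a difference of 1.00 that lay just under the size needed for a call (limma, adjusted p = 0.248). Serpina3n differed by 0.33 (limma, adjusted p = 0.339). Il6st went the other way, at -0.25 (limma, adjusted p = 0.452), and so did Socs3, named after its values were seen, at -0.235 (limma, adjusted p = 0.739). Between CFA6D and CFA3D, Il6st and Socs3 differed by -0.34 and -0.625.

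The glucocorticoid list held all the calls among the 5 lists. All 20 genes were tested, 0 were called for CFA3D with saline by limma, 6 were called higher for CFA6D with saline and 7 for CFA6D with CFA3D, and none was called lower. Over all gene sums, 0.398% were called higher for CFA6D with saline and 0.634% for CFA6D with CFA3D. At an unadjusted p under 0.05 there were 0, 13 and 9 of the 20, against 4.45%, 11.1% and 7.39% of all gene sums. The median of the list was 0.04, 0.74 and 0.63 in the 3 comparisons. The list was written with earlier results of these data known, among them that Arid5b and Ddit4 were high on CFA6D. Its calls, its median and the p-values of its genes are therefore a description and no independent evidence of its direction.

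Ddit4 rose from 22.5 ± 4.93 FPKM in saline to 70.5 ± 8.10 on CFA6D (SD, n = 3 each), a log2 difference of 1.66 with an SE of 0.22 (limma, adjusted p = 0.0729). Arid5b, a chromatin-associated cofactor of adipocyte genes, rose from 8.60 ± 1.74 to 18.8 ± 1.16 FPKM (SD, n = 3 each, limma, adjusted p = 0.0729). Nfkbia rose by 1.15 (limma, adjusted p = 0.103) and the kinase Sgk1, a classical glucocorticoid target, by 1.22 (limma, adjusted p = 0.156). The other called genes, named after their values were seen, were Hif3a (1.28, limma, adjusted p = 0.191) and the clock gene Per1 (1.11, limma, adjusted p = 0.201).

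Several well-known targets of the list were not called, some of them (Tsc22d3 among them) for a difference under the size needed. Fkbp5 had 22.6 ± 6.44 FPKM in saline and 37.1 ± 9.05 on CFA6D, and Tsc22d3 (GILZ) had 68.7 ± 26.0 and 109 ± 13.4 (SD, n = 3 each). Zbtb16 had 21.5 ± 7.88 and 28.9 ± 6.36 FPKM (SD, n = 3 each). The receptor Nr3c1 had 13.3 ± 1.47 FPKM in saline and 10.8 ± 1.42 on CFA6D (SD, n = 3 each, log2 difference -0.30, limma, adjusted p = 0.410). All of these were named after their values were seen. Mt1 and Mt2, which glucocorticoids can also induce, were at -0.30 and -0.13 in the same comparison. Leaving out each library in turn gave 4 to 7 called genes of the list for CFA6D with saline and 3 to 8 for CFA6D with CFA3D, with 3 without CFA3D replicate 3. No gene sum of the mRNA table reached an adjusted p under 0.05 in limma in any comparison, while 717, 1781 and 1190 had an unadjusted p under 0.05.

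**Figure D5:**
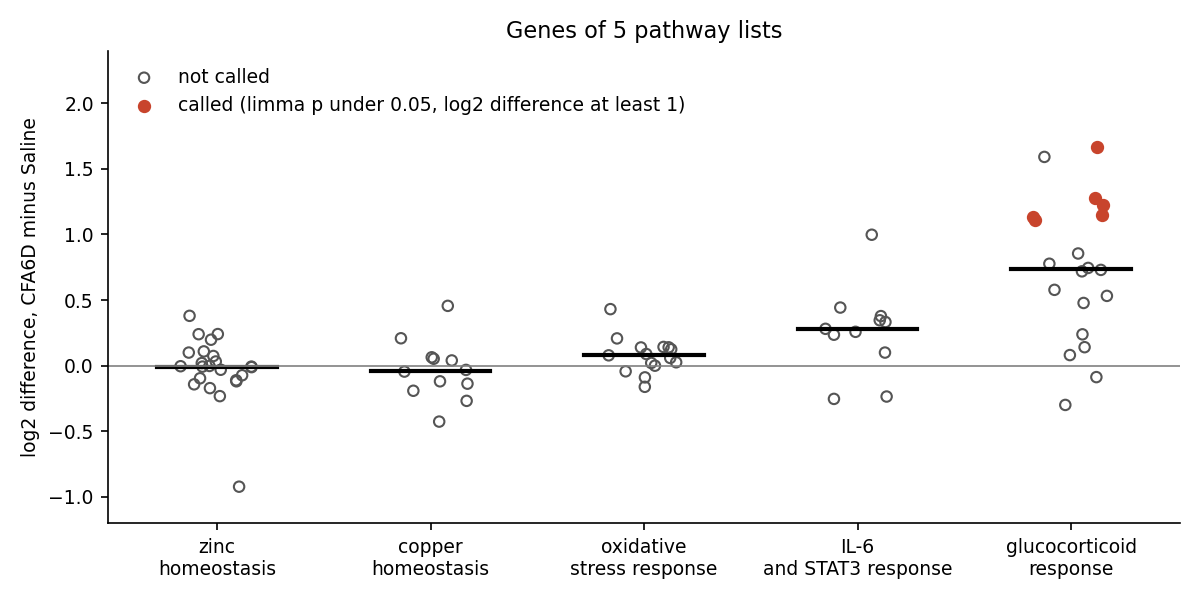
Log2 difference between CFA6D and saline for the tested genes of 5 lists (points), with filled red points for genes called by limma (unadjusted p under 0.05 and a size of at least 1) and black bars for the list medians. The 6 called genes are all in the glucocorticoid list, whose median is 0.74, against -0.01 for zinc, -0.04 for copper, 0.08 for oxidative stress and 0.28 for IL-6 and STAT3.

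Marker genes of the cell types in the ganglion were read beside these values. For CFA6D with saline, limma called 0 of 12 neuronal genes, 0 of 8 satellite glial, 0 of 8 endothelial, 0 of 10 fibroblast, 0 of 9 macrophage and 0 of 7 erythroid genes, with 4, 0, 0, 2, 1 and 0 at an unadjusted p under 0.05, against 0.584% called and 11.1% at that p over all gene sums. The list medians were 0.20, -0.13, -0.15, -0.06, -0.35 and -0.42 in that order. Of the 8 Schwann cell genes 1 was called, Egr2, at 5.94 ± 2.84 FPKM in saline and 13.2 ± 1.43 on CFA6D (SD, n = 3 each, limma, adjusted p = 0.444), and the median was 0.06. The Egr2 call held in 1 of the 6 fits that left out a library, the one without saline replicate 2, and its difference was 0.79 to 1.56 over them. In CFA6D with CFA3D, limma called 2 of 7 erythroid genes and 1 of 8 Schwann cell genes (Egr2) higher. Over all gene sums 0.634% were called higher. The erythroid median was 0.18 with a highest difference of 2.04, and the other lists of this paragraph had 0 calls. Pituitary and muscle markers had medians of 3.30 and 0.88 in that comparison, with 0 of 8 genes called in each. For CFA6D with saline their medians were -0.33 and -1.69, again with 0 of 8 called in each. For CFA3D with saline the medians were -2.57 and -2.61. There 0 of 8 pituitary genes and 1 of 8 muscle genes were called, the latter lower, against 0.342% called over all gene sums. Summed satellite glial markers ran from 641 to 801 FPKM in saline and 652 to 734 on CFA6D, and summed macrophage markers from 98.7 to 119 and 58.4 to 103. No marker of these lists was at 0 in all libraries. The part of the cell make-up in the Gm45774 and Mt1-202 differences was not tested.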

How the data were processed

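The data are total RNA sequencing of trigeminal ganglion pools, 3 each of saline, CFA3D and CFA6D. The authors deposited transcript-level FPKM, with mRNA, lncRNA and other noncoding transcripts in separate tables. The methods describe rRNA depletion, stranded total RNA libraries, trimming and mapping to GRCm38, and do not mention FPKM. The submitters' processing notes name Bowtie 0.12.2 and mm8, and the labels name another library kit, so the tool, the build and the use of strand behind the FPKM values are not settled by the sources used here. All per-sample columns were used (0 left out).

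Transcripts were joined by identifier to GENCODE release M21 (GRCm38). The join matched 101539 of 102122 mRNA, 15370 of 15657 lncRNA and 24532 of 24718 other entries, and FPKM was summed per gene. The value of 1 read pair was read from the steps of FPKM times length, checked on simulated data, and gave approximate read pairs. All 9 transcripts of the 4 members and the single transcript of Mt4 were found. Promoters came from RefSeq (GRCm38.p6).

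Genes of the mRNA table that averaged 0.1 FPKM or more entered the fit as log2(FPKM + 0.1) in limma 3.58.1 (R 4.3.3) with all 9 libraries, 3 group means, no covariate and a mean trend. Genes were called at an unadjusted p below 0.05 where the log2 difference was at least 1 in size. Benjamini-Hochberg adjustment ran over all gene sums tested. The p-values set a difference of group means against the spread between pools, which limma moderates over genes. With 3 libraries per group no permutation test was run. Other steps used Python 3.11.15, numpy 2.4.6, pandas 2.3.3 and matplotlib 3.10.9.

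The members, lists and rules were chosen with earlier results of these data known. Named were the members, Mt4, the 3 nearest tested coding genes on each side within 250 kb, the 5 genes most like Mt1 with Mt2, Mt3 and Gm45774, and up to 4 genes of each pathway list by the smallest p for CFA6D with saline, while any zinc gene could be named. Alternatives changed the pseudocount (0.01 or 1), the filter (1 FPKM or none), the normalization (quantile), the libraries in the fit (only the groups compared, or each left out in turn) and the minimum difference (none). They also replaced a gene sum by its most abundant transcript and added a replicate block. The alternatives for the glucocorticoid list were added after the data had been seen.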

Additional observations from a re-analysis of the deposited data

Results flagged for a closer look

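Gm45774 stood out for the difference between its CFA groups. All 3 CFA3D libraries (0.386 to 0.589 FPKM) were below the lowest saline library (0.618 FPKM), and all 3 CFA6D libraries (2.02 to 3.30 FPKM) were above the highest (0.722 FPKM). Of all lncRNA gene sums, 4.03% had CFA3D wholly below saline and 5.94% had CFA6D wholly above it. The log2 difference between CFA6D and CFA3D was 2.10. This difference between the days was not tested, since Gm45774 was chosen for it. The gap between CFA3D and saline is 0.618 against 0.589 FPKM at its nearest, or 50.5 and 66.2 approximate read pairs in libraries of different depth.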

How the results depend on the processing

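Of 120 alternative values of the members' differences, 118 moved by less than 1 replicate SD. With a pseudocount of 1 the Gm45774 difference was 1.08 for CFA6D with saline and 1.21 for CFA6D with CFA3D, since 1 FPKM exceeds its level in the control libraries. The calls over all genes depended more on the settings. The 55, 94 and 124 calls (CFA3D with saline, CFA6D with saline, CFA6D with CFA3D) became 9, 20 and 36 with a pseudocount of 1, 18, 37 and 60 with a mean of at least 1 FPKM, and 717, 1781 and 1190 without a minimum difference. Leaving out 1 library gave 45 to 106, 115 to 239 and 102 to 273 calls. The counts moved by over 1.5 times without saline replicates 1 (103), 2 (90) and 3 (106) for CFA3D with saline, without saline replicate 3 (151) and CFA6D replicates 4 (239), 5 (158) and 6 (156) for CFA6D with saline, and without CFA6D replicates 4 (273) and 5 (225) for CFA6D with CFA3D. The cause was not tested. The split of higher and lower calls for CFA6D with CFA3D went from 102 and 22 to 92 and 38 with quantile normalization, 48 and 57 without CFA3D replicate 3, 60 and 56 without CFA6D replicate 6, and 492 and 698 without a minimum difference. For CFA6D with saline it went from 64 and 30 to 50 and 106 without CFA6D replicate 6, and for CFA3D with saline from 12 and 43 to 588 and 129 without a minimum difference. The signs of the Mt2 and Mt3 differences from saline, and of those of Mt1, Mt2 and Mt3 between the CFA days, turned without CFA6D replicate 6 or, for CFA3D, without single libraries. Saline and CFA3D share replicate numbers, and deviations of same-numbered libraries from their group means had r of 0.09, -0.08 and 0.03. With 3 libraries per group these values cannot exclude a pairing by number, and no pairing is labelled. With the replicate number as a block there were 115 calls for CFA3D with saline, and 0 of them were in the glucocorticoid list. At 30.0 to 42.2 M read pairs the values of Mt4 and Mt2-202 rest on few reads.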
